A study of Mus musculus with 2 samples.

Results

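The genes described are the ZFP36 family (Zfp36, Zfp36l1 and Zfp36l2) and the BTG/TOB family (Btg1, Btg2, Btg3, Tob1 and Tob2) of mRNA decay regulators, 8 of the 43346 genes measured. They were chosen by symbol, through the gene identifiers of the deposited gene and transcript tables, and all 8 were found, with 10 transcripts. The RNA was polyadenylated RNA of G1E-ER4 cells, an immortalized mouse erythroid line without functional Gata1 of its own that carries a fusion of GATA1 with an estrogen receptor's hormone-binding region. All cells had been given 10 nM 17beta-estradiol for 24 h, which releases GATA1 activity and starts erythroid differentiation; no untreated sample was analysed here. The study has 1 group of 2 libraries, biological replicates 1 and 2, both listed under 1 biosample record. Whether they are separate cultures is not clear, and technical and biological differences between them cannot be told apart. No test between conditions was possible, and the smallest p an exact sign-flip test allows with 2 libraries is 0.5. The question was how strongly each gene was expressed, which paralog led each family in both libraries, and how far the libraries lay apart.

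ZFP36 proteins (ZFP36 is also called tristetraprolin) carry a pair of zinc fingers that bind AU-rich elements in 3′ untranslated regions (UTRs) and bring in the CCR4-NOT deadenylase, which removes the poly(A) tail and starts decay of the mRNA. BTG/TOB proteins share an N-terminal domain that binds the CNOT7 and CNOT8 subunits of the same deadenylase, and they slow cell proliferation. ZFP36L2 is known for maintaining the self-renewal of early erythroid progenitors, and BTG2 is known as a target gene of p53.

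Replicate 1 held 70451042 estimated counts and replicate 2 held 13841487, a 5.09-fold difference in depth, so the limit that a count of 0 allows, set at 3 counts and covering counting error only, was 0.0426 CPM (counts-per-million) for replicate 1 and 0.217 CPM for replicate 2. At least 1 TPM (transcripts-per-million, a level corrected for transcript length) was reached by 8549 genes in replicate 1, by 7907 in replicate 2 and by 7444 in both. All 11 erythroid markers reached 1 TPM in both libraries, and their summed level, 233943 TPM for replicate 1 and 89642 TPM for replicate 2, was nearly all globin. The 4 globin genes, all higher in replicate 1, summed to 228606 and 83090 TPM, and the other 7 markers to 5337 and 6552 TPM. Of these 7, Klf1 (664.76 and 2351.07 TPM) and Tal1 (407.71 and 569.04 TPM) were higher in replicate 2 and the other 5 higher in replicate 1, among them Gata1 (3038 and 2940 TPM). Among the markers of other cell types, 3 of 5 megakaryocyte genes and 1 of 6 myeloid genes reached 1 TPM in both libraries, and none of 3 mast cell, 3 T and NK cell and 3 B cell genes did. The summed level was 22.4 and 36.6 TPM for the megakaryocyte list and 6.89 and 7.01 TPM for the myeloid list. It was between 0 and 1.11 TPM for the other lists. Pf4, Csf1r, Cpa3, Fcer1a, Cd3d and Cd3e were at 0 in both libraries.

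All 8 genes exceeded 1 TPM in both libraries, but no paralog led its family in both. Zfp36l1 led the ZFP36 family in replicate 1 and Zfp36l2 in replicate 2. Btg2 led the BTG/TOB family in replicate 1 and Tob2 in replicate 2. The median of the 8 mean levels was 79.7 TPM, beside 18.6 TPM for the 7444 genes at 1 TPM or more in both libraries.

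**Figure D1:**
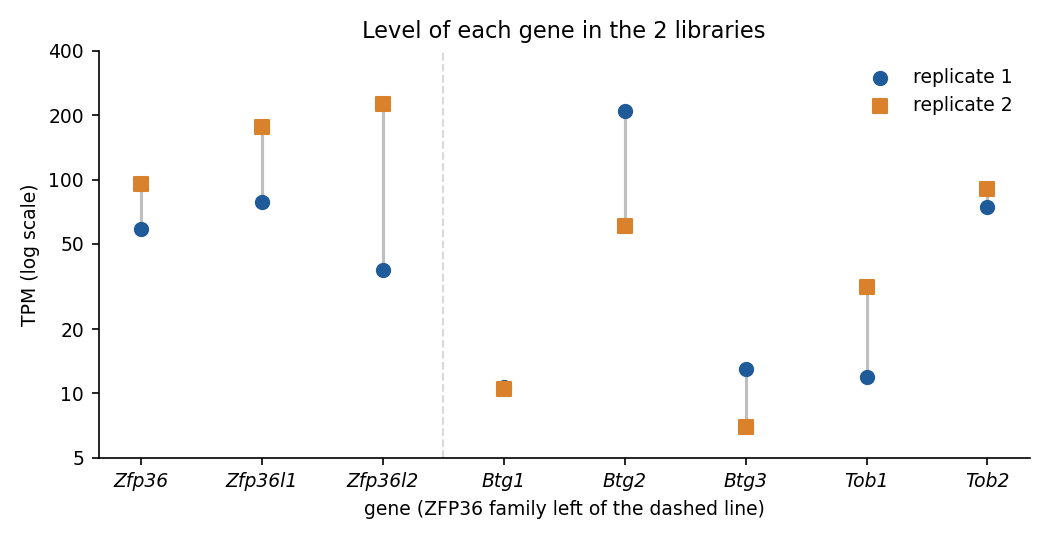
Level of each gene (TPM, log scale) in replicate 1 (circles) and replicate 2 (squares), joined by a line. The 3 ZFP36 genes and Tob1 and Tob2 were higher in replicate 2, Btg2 and Btg3 were higher in replicate 1, and the Btg1 points, at 10.72 and 10.54 TPM, nearly coincide.

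Zfp36 (ENSMUSG00000044786.5, mm10 chr7:28376784-28380253, minus strand), the founding member of its family and an inducible repressor of cytokine mRNAs, had 58.80 TPM (replicate 1) and 95.74 TPM (replicate 2), or 77.3 ± 26.1 TPM (SD, n = 2). Zfp36l1 (ENSMUSG00000021127.6, chr12:80107754-80113013, minus strand), a paralog with the same zinc finger pair, had 78.54 and 176.74 TPM, or 128 ± 69.4 TPM. Zfp36l2 (ENSMUSG00000045817.8, chr17:84183931-84187947, minus strand), the progenitor self-renewal factor, had 37.88 and 226.52 TPM, or 132 ± 133 TPM. All 3 were higher in replicate 2, and the gap widened from Zfp36 (1.63-fold) through Zfp36l1 (2.25-fold) to Zfp36l2 (5.98-fold). Zfp36l2 ranked 2464th of all genes in replicate 1 and 585th in replicate 2. It had the highest mean of the family, but the ranges of neighbouring members over the 2 libraries overlapped in both pairs, so the order of the means is not larger than the spread.

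The 3 ZFP36 genes differed in the count behind these levels. Zfp36l2 had nearly equal counts in both libraries, 8823 and 8610, although replicate 1 was the deeper. Zfp36l1 had 10852 and 3828 counts, and Zfp36 6649 and 1779. As shares of the family's summed TPM, Zfp36l1 held 44.8% in replicate 1 and 35.4% in replicate 2. Zfp36 held 33.6% and 19.2%, and Zfp36l2 held 21.6% and 45.4%. On this scale Zfp36l2 had the smallest share of the 3 in replicate 1 and the largest in replicate 2. The log2 ratio of Zfp36l2 over Zfp36l1 was −1.05 in replicate 1 and 0.36 in replicate 2 (−0.35 ± 1.00, SD, n = 2), and over Zfp36 it was −0.63 and 1.24 (0.30 ± 1.33). On the TPM scale both ratios changed sign between the libraries and both SDs exceeded the size of the mean. In counts, which are not corrected for length, the same paralogs led, with 41.2% for Zfp36l1 in replicate 1 and 60.6% for Zfp36l2 in replicate 2. In counts, however, Zfp36l2 stood above Zfp36 in both libraries, with 33.5% against 25.3% in replicate 1, and its log2 ratio over Zfp36 was 0.41 and 2.27 (1.34 ± 1.32) with no change of sign.

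Each ZFP36 gene has at least 1 annotated transcript whose 3′ UTR holds the heptamer TATTTAT, read with U for T in the RNA, the core of the AU-rich element that the family's zinc fingers bind. The sites are shown because these transcripts hold the motif that the family's own proteins bind; a match describes the sequence, and binding was not measured. Each line gives 8 bases on either side of the heptamer (capitals) on the mRNA strand, 5′ to 3′, from the mm10 genome with the GENCODE M21 gene models, all exonic and in the 3′ UTR.
Zfp36, chr7:28376969-28376991: gggcccttTATTTATgacgactt
Zfp36, chr7:28376954-28376976: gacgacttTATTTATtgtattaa
Zfp36, chr7:28376929-28376951: ttttatagTATTTATatatattg
Zfp36l1, chr12:80108425-80108447: tcaaaacgTATTTATtgccaaac
Zfp36l1, chr12:80108384-80108406: tttgttcaTATTTATcgggatga
Zfp36l1, chr12:80108170-80108192: tgttggatTATTTATtttagaaa
Zfp36l2, chr17:84184917-84184939: atttaactTATTTATtatcttgt
Zfp36l2, chr17:84184869-84184891: ccatactgTATTTATcgagtatg
Zfp36l2, chr17:84184683-84184705: gtatgtaaTATTTATttcattaa
The first pair of Zfp36 sites overlaps in its flanks. The Zfp36 heptamers begin 575, 590 and 615 bases after the stop codon, in a 3′ UTR of 774 bases. Those of Zfp36l1 begin at 1150, 1191 and 1405 of 1835 bases, and those of Zfp36l2 at 822, 870 and 1056 of 1822 bases. Of the 21037 genes with a 3′ UTR searched, 27.6% held the heptamer on the mRNA strand. Among genes with a 3′ UTR of 0.8 to 1.25 times the same length, 3 or more were held by 1.23% for the length of Zfp36, 4.33% for Zfp36l1 and 4.30% for Zfp36l2.

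The Zfp36l1 sites lie in only 1 of its 2 transcripts. Zfp36l1-201 (ENSMUST00000021552.1, 2 exons) ends at position 80107754, and Zfp36l1-202 (ENSMUST00000165114.1, 3 exons) has the same stop codon but ends at 80108698, upstream of all 3 heptamers, with a 3′ UTR of 794 bases. The shorter-tailed Zfp36l1-202 had 61.94 TPM (replicate 1) and 154.31 TPM (replicate 2), which was 78.9% and 87.3% of the gene's TPM. Zfp36l1-201, which holds the heptamers, had 16.60 and 22.43 TPM, or 21.1% and 12.7%. The order of the transcripts was the same in both libraries, and the share of the longer 3′ UTR was the lower in replicate 2. Of counts, Zfp36l1-202 held 70.1% and 81.3%. These shares are the authors' model estimates for isoforms that share most of their sequence.

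**Figure D2:**
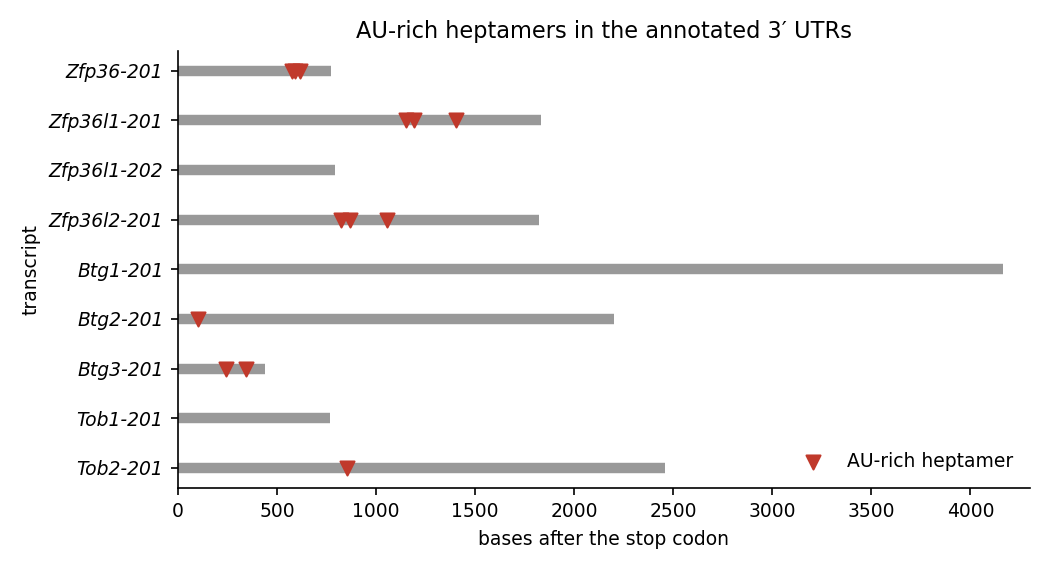
Annotated 3′ UTR of each transcript (grey bar, bases after the stop codon) with the first base of each AU-rich heptamer (red). Zfp36, Zfp36l1-201 and Zfp36l2 hold 3 each, Btg3 holds 2, Btg2 and Tob2 hold 1, and Zfp36l1-202, Btg1 and Tob1 hold none.

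In the BTG/TOB family, Btg2 had both the highest mean and the widest range. Btg2 (ENSMUSG00000020423.6, chr1:134075170-134079120, minus strand), a p53-responsive antiproliferative gene, had 208.67 TPM (replicate 1) and 60.63 TPM (replicate 2), or 135 ± 105 TPM (SD, n = 2), 3.44-fold higher in replicate 1. Tob2 (ENSMUSG00000048546.7, chr15:81848272-81858796, minus strand), which like TOB1 joins the deadenylase to poly(A)-binding protein, had 74.11 and 90.22 TPM, or 82.2 ± 11.4 TPM. The Tob2 values lay within the range of the Btg2 values, so these 2 genes are not separated by more than their spread.

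The other 3 genes were lower. Tob1 (ENSMUSG00000037573.5, chr11:94211454-94215495, plus strand), the second TOB protein, had 11.92 and 31.50 TPM, or 21.7 ± 13.8 TPM, 2.64-fold higher in replicate 2. Btg1 (ENSMUSG00000036478.7, chr10:96617006-96622809, plus strand), the closest paralog of Btg2, had 10.72 and 10.54 TPM, or 10.6 ± 0.127 TPM. Btg3 (ENSMUSG00000022863.10, chr16:78332637-78377192, minus strand), another antiproliferative member, had 12.94 and 6.95 TPM, or 9.94 ± 4.24 TPM. The ranges of Tob2 and Tob1 did not overlap, nor did those of Tob1 and Btg1, while Btg3 overlapped Btg1. Btg3 had the fewest counts of the 8, 1126 and 99.7, and was the only member with a posterior SD of its count above 0 (47.4 and 6.58 counts).

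As shares of the BTG/TOB sum, Btg2 held 65.5% in replicate 1 and 30.3% in replicate 2, and Tob2 held 23.3% and 45.1%. Tob1 held 3.74% and 15.8%, Btg1 3.37% and 5.27%, and Btg3 4.06% and 3.48%. Btg2 was 19.5 times the level of Btg1 in replicate 1 and 5.75 times in replicate 2, a log2 ratio of 3.39 ± 1.24, and the log2 ratio over Btg3 was 3.55 ± 0.63. Against Tob1 the log2 ratio was 4.12 and 0.94 (2.53 ± 2.25), and against Tob2 it changed sign, with 1.49 and −0.57 (0.46 ± 1.46). In counts Btg2 led replicate 1 with 58.8% and Tob2 led replicate 2 with 54.9%.

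**Figure D3:**
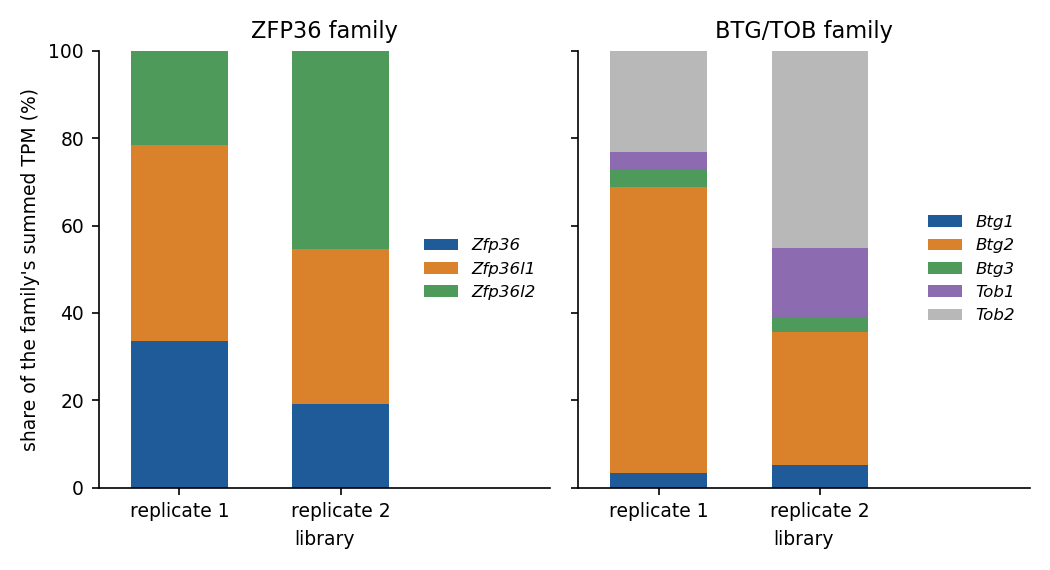
Share of each family's summed TPM (%) held by each gene, in replicate 1 and replicate 2. Zfp36l2 went from 21.6% to 45.4% of the ZFP36 sum, and Btg2 from 65.5% to 30.3% of the BTG/TOB sum.

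The summed levels of the families differed between the libraries in opposite directions, and the BTG/TOB direction rested on Btg2. The ZFP36 sum was 175 TPM for replicate 1 and 499 TPM for replicate 2, 2.85-fold higher in replicate 2. The BTG/TOB sum was 318 and 200 TPM, 1.59-fold higher in replicate 1. Without Btg2 the other 4 genes summed to 110 and 139 TPM, 1.27-fold higher in replicate 2, and the median log2 difference of the 5 in scaled counts was 0.10. The ZFP36 sum was 0.550 times the BTG/TOB sum in replicate 1 and 2.50 times in replicate 2. Of the 8 genes together, Btg2 held 42.3% in replicate 1 and 8.68% in replicate 2, and Zfp36l2 held 7.67% and 32.4%. In the order of all 8 means, 2 of 7 neighbouring pairs did not overlap, Zfp36 above Tob1 and Tob1 above Btg1. The deposited TPM intervals surround the posterior mean, and their level is not stated in the sources. They do not always hold the TPM printed above, which lay over its interval for 1 of the 8 genes in replicate 1 and for 5 in replicate 2. With genes ordered by TPM within a library, these intervals were apart for 6 of the 7 neighbouring pairs in each. They overlapped for Btg3 and Tob1 in replicate 1 and for Zfp36 and Tob2 in replicate 2.

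The BTG/TOB genes held 0 to 2 heptamers each, and these sites are shown beside those of the ZFP36 genes for comparison.
Btg2, chr1:134077252-134077274: tgaagagcTATTTATacatgttt
Btg3, chr16:78360044-78360066: gacttgagTATTTATatattgtg
Btg3, chr16:78359940-78359962: atataagtTATTTATacagaagg
Tob2, chr15:81849863-81849885: cacctgctTATTTATgtacgagg
Btg2 had 1 site, 103 bases after the stop codon in a 3′ UTR of 2199 bases. Tob2 had 1 site in 2457 bases, and Btg3 had 2 in 439 bases. At least 1 site was held by 43.4% of genes with a 3′ UTR of like length to that of Btg2 and by 47.4% for Tob2. At least 2 were held by 2.20% for Btg3. Btg1 had none in 4166 bases and Tob1 none in 767 bases, where 60.9% and 19.5% of genes of like length held 1 or more. The shorter pentamer ATTTA occurred 11 times in Btg1 and 3 times in Tob1. In all, 6 of the 8 genes held the heptamer in at least 1 annotated transcript, beside 27.6% of the 21037 genes searched. Zfp36l1 is among the 6 through Zfp36l1-201 alone, which had 21.1% (replicate 1) and 12.7% (replicate 2) of the gene's TPM.

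To set the libraries side by side, counts were scaled by TMM (trimmed mean of M-values) and compared with a two-sided exact binomial test. This test compares 2 libraries, not conditions, and covers counting error only. Genes with a mean CPM of 1 or more over the 2 libraries were tested. A gene near that limit could pass through 1 library alone, and its call then follows in part from the filter. Genes with a Benjamini-Hochberg adjusted p under 0.05 and at least 2-fold were called. Of the 8884 genes tested, 4244 were called (47.8%), 2646 higher in replicate 1 (29.8%) and 1598 higher in replicate 2 (18.0%). Of the 8 genes 4 were called, Btg2 higher in replicate 1 and Zfp36l1, Zfp36l2 and Tob1 higher in replicate 2, a share close to that of all genes. Scaling by total counts moved the split of all calls to 3546 higher in replicate 1 and 948 in replicate 2, and the median log2 difference of all genes from −0.19 to −0.61.

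Zfp36l2 had 109 scaled CPM in replicate 1 and 714 in replicate 2, a log2 difference of 2.71. Zfp36l1 had 134 and 317 CPM, a log2 difference of 1.24, and Btg2 had 461 and 147 CPM, a log2 difference of −1.65. The exact binomial p of these 3 genes was too small to be represented and was returned as 0. Tob1 had 21.7 and 63.0 CPM, a log2 difference of 1.54 (adjusted p = 4.02e-112, exact binomial test). These 4 genes are the ones whose libraries lay more than 2-fold apart. With total counts in place of TMM the call of Zfp36l1 was lost, at a log2 difference of 0.84.

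The other 4 genes were not called. Zfp36 had 82.2 and 148 CPM and a log2 difference of 0.84 (adjusted p = 3.76e-94, exact binomial test), under 2-fold. Tob2 had 243 and 323 CPM and a log2 difference of 0.41 (adjusted p = 1.02e-55, exact binomial test). With total counts the Tob2 difference was 0.015 (adjusted p = 0.578, exact binomial test). Btg3 had 13.9 and 8.29 CPM and a log2 difference of −0.74 (adjusted p = 1.92e-07, exact binomial test), and was called higher in replicate 1 with total counts, at −1.14. For Btg1, with 44.4 and 47.7 CPM, the log2 difference was 0.10 (adjusted p = 0.126, exact binomial test) and turned to −0.29 with total counts. The ZFP36 genes and Tob1 were thus higher in replicate 2, and Btg2 and Btg3 higher in replicate 1, under TMM, DESeq2 size factors and total counts alike. The 4 globin genes summed to 228606 TPM for replicate 1 and 83090 TPM for replicate 2, while the other 7 erythroid markers summed to 5337 and 6552 TPM, with Klf1 and Tal1 higher in replicate 2. Their part in these differences was not tested, and in bulk RNA fewer cells of a type and less RNA per cell cannot be told apart.

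**Figure D4:**
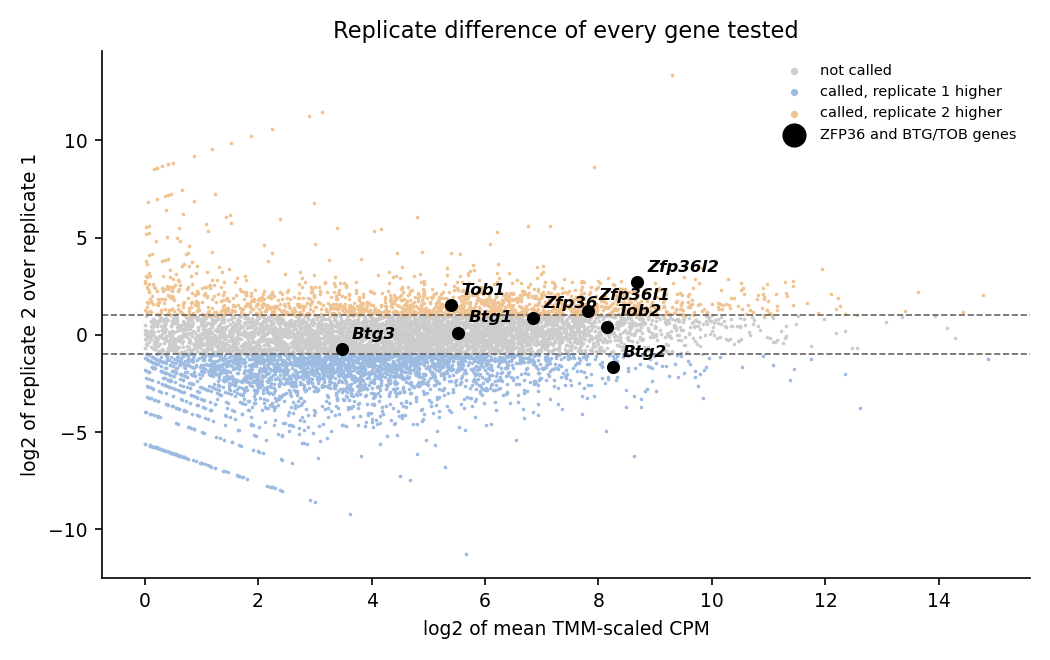
Log2 difference between the libraries (replicate 2 over replicate 1) against the log2 of mean TMM-scaled CPM for the 8884 genes tested, with dashed lines at 2-fold. Zfp36l2, Tob1 and Zfp36l1 lie above the upper line, Btg2 lies below the lower line, and the other 4 genes lie between the lines.

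The relatives, pseudogenes and overlapping genes that were looked up and measured took few counts or none. No copy of Btg3 was looked up, and its gene count had a posterior SD of 47.4 (replicate 1) and 6.58 (replicate 2). Zfp36l3, the retrogene relative in rodents, had 2 counts in replicate 1 and 7 in replicate 2. Btg4, the oocyte-expressed member, and the pseudogenes Btg1-ps1, Btg1-ps2 and Zfp36l1-ps had 0 in both. On the opposite strand, Gm26669 (over Zfp36l1) had 2 and 0 counts and Cxadr (over Btg3) had 0 in both. The overlapping genes Gm44710, AC132455.1, Gm49590 and Gm49476 were not analysed here. The sources used here do not say whether counting used strand, so reads from such pairs may not have been separated. Of the 10 transcripts, 6 have the same length in GENCODE M21 as in the deposited tables, so 3′ UTRs may differ from the models that were counted. Of the 2 Btg3 transcripts, Btg3-201 took 100% and Btg3-202 0% in both libraries.

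By Euclidean distance over the 2 libraries in log2(TPM + 0.1), the genes nearest to Zfp36l2 were Atp13a3 (39.66 and 233.63 TPM, distance 0.08), Josd1 (41.11 and 233.66 TPM, 0.13) and Npepps (35.61 and 254.31 TPM, 0.19). Those nearest to Btg2 were Gm10282 (210.66 and 60.63 TPM, 0.01), Tedc2 (202.53 and 59.26 TPM, 0.05) and Dbnl (213.19 and 56.46 TPM, 0.11). A likeness over 2 libraries rests on 2 values per gene.

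Promoter windows, the 250 bases upstream of the RefSeq start on GRCm38.p6, were matched for 7 of the 8 genes. Zfp36l2 was not among them. Btg3 had 2 windows and the other genes 1 each. For Zfp36, Tob2 and the second Btg3 window, the window lay inside the M21 gene span given above. The RefSeq start was thus downstream of the M21 gene start. The first Btg3 window overlapped the gene span in part. The windows of Btg2 (chr1:134079156-134079405, minus strand) and Tob1 (chr11:94211204-94211453, plus strand) are shown because these genes were called in opposite directions. Capitals mark CCAAT boxes, the cAMP response element TGACGTCA (in Btg2) and, in Tob1, a GATA motif and a TATAAA box, found on either strand.
Btg2: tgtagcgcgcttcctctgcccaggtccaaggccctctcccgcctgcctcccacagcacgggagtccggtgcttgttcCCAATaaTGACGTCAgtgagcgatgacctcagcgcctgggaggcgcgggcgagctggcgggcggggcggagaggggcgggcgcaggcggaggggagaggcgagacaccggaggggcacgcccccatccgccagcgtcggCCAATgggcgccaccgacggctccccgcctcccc
Tob1: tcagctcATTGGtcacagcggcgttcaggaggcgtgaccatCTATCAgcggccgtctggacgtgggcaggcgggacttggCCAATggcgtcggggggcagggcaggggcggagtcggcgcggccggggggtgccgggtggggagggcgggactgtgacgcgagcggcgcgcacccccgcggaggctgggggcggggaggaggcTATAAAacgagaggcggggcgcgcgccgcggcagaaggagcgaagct
The GATA motif (AGATAA or TGATAA, or the same with a final base G, that is AGATAG or TGATAG, on either strand) occurred upstream of Tob1, first base at −209, and of Zfp36, at −149; 26.5% of the 32851 promoters held it. The cAMP response element occurred in Btg2 alone of the 7, at −166, and in 1.55% of all promoters. CCAAT occurred in 5 of the 7 genes (33.8% of all promoters) and TATAAA in 3, Btg1, Tob1 and Zfp36l1 (12.4%); in Zfp36l1 they overlap. Any link between these motifs and the differences between the libraries was not tested. A match is a description of the letters in this window, and occupancy was not measured.

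Most genes of the machinery that these regulators recruit were measured above 1 TPM. All 14 CCR4-NOT and PAN deadenylase genes reached 1 TPM in both libraries (median 10.1 TPM), beside 18.6 TPM for all genes that did. Cnot3, a scaffold-associated subunit, was the highest with 669.49 and 1052.94 TPM, followed by Cnot11 (51.82 and 181.36 TPM) and the catalytic subunit Cnot6 (63.76 and 120.66 TPM). Pan2 was the lowest, with 1.88 and 1.12 TPM. Cnot7 and Cnot8 encode the catalytic subunits that BTG/TOB proteins bind. Cnot7 had 60.27 and 98.12 TPM and Cnot8 4.96 and 1.74 TPM. In this list 2 genes were called higher in replicate 1, Cnot8 and Cnot4, and 2 higher in replicate 2, Cnot11 and Pan3, where 29.8% and 18.0% of all genes tested were called; the counts of the lists that follow are given against the same shares.

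Of 7 poly(A)-binding genes, 5 passed 1 TPM (median 231 TPM), and Pabpc1, the main cytoplasmic poly(A)-binding protein, was the highest with 1158.62 and 2662.77 TPM. Pabpc4 had 677.65 and 1938.78 TPM and the nuclear Pabpn1 185.24 and 277.35 TPM, and Pabpc6 was at 0. Of the 5 tested, 3 were called higher in replicate 2 (Pabpc1, Pabpc4, Paip1) and 1 higher in replicate 1 (Paip2), beside 18.0% and 29.8% of all genes tested. For decapping and 5′ decay, 10 of 11 genes passed (median 9.80 TPM), led by Lsm14a (38.71 and 33.08 TPM), Ddx6 (28.23 and 29.41 TPM) and Edc4 (24.34 and 17.01 TPM), with the decapping enzyme Dcp2 the lowest (1.66 and 1.17 TPM). Here 2 were called in each direction, none of them among the 4 named.

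Of 13 exosome genes measured, 11 passed 1 TPM (median 13.9 TPM). Exosc5 had 132.07 and 376.80 TPM, Skiv2l 55.87 and 49.83 TPM and Exosc3 40.94 and 22.52 TPM, while Ttc37 had 56 and 0 counts. The exosome list had 6 of 11 tested genes called higher in replicate 1 and 2 higher in replicate 2, beside 29.8% and 18.0% of all genes tested. Its median log2 difference was −1.08, beside −0.19 for all genes. Exosc7 (306 and 10 counts), among the 6, passed the filter only through replicate 1. Of 16 other mRNA-binding factors, 15 passed (median 18.4 TPM), led by the AU-rich element binding proteins Hnrnpd (318.22 and 680.44 TPM) and Khsrp (187.59 and 506.78 TPM), both called higher in replicate 2, then Tial1 (70.52 and 112.30 TPM). Rc3h1 was the lowest with 1.39 and 0.91 TPM. Of these 16 genes, 5 were called higher in replicate 1 and 4 higher in replicate 2.

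ZFP36 proteins are phosphorylated through the p38 and MK2 kinases and then bound by 14-3-3 proteins. Of 11 genes in that list, 10 passed 1 TPM (median 58.9 TPM), and the 3 highest were 14-3-3 genes. Ywhae had 289.22 TPM (replicate 1) and 20.02 TPM (replicate 2) and was called higher in replicate 1, at a log2 difference of −2.52. Ywhag had 146.04 and 113.05 TPM and Ywhab 59.76 and 100.35 TPM, neither called, and Sfn was the lowest (21 and 17 counts). Mapkapk2, which encodes MK2, had 10.90 and 28.44 TPM and was the 1 gene of the list called higher in replicate 2, while Ywhaq joined Ywhae among those higher in replicate 1. In each list, called genes outside the 3 highest and the lowest were named after their values were seen, as were the target genes at or near 0 and the subunits Cnot7 and Cnot8 in the deadenylase list. Of 10 BTG/TOB partners measured, 8 passed (median 51.0 TPM), with Pabpc1, Cnot7 and Mapk3 (59.88 and 93.42 TPM) the highest and Smad1 at 0. Of the 8 tested, Pabpc1, Smad4 and Smad2 were called higher in replicate 2 and Cnot8 higher in replicate 1.

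Of 20 reported ZFP36-family target mRNAs, 7 passed 1 TPM, and the highest were Ccnd3, a G1 cyclin, with 1593.95 and 1980.03 TPM, Pim1, a survival kinase, with 441.39 and 1782.55 TPM, and Mcl1, an antiapoptotic BCL2-family gene, with 294.86 and 701.01 TPM. The cytokine genes Csf2, Il2, Il3, Cxcl1 and Cxcl2 and the inducible Ptgs2 had 0 counts in both libraries, and Tnf had 1 count in each. The survival gene Bcl2 (0.09 and 0.03 TPM), the kinase gene Pim3 (0.03 and 0.94 TPM) and the G1 kinase gene Cdk6 (0.95 and 0.32 TPM) were also under 1 TPM in both. Of the 10 targets tested, 5 were called higher in replicate 2, Pim1, Mcl1, Ier3, Plk3 and Pim3, and 1 higher in replicate 1, Cdk6, beside 18.0% and 29.8% of all genes tested. Plk3 (63 and 29 counts) and Pim3 (4 and 24 counts) passed the filter only through replicate 2, so their calls follow in part from the filter. Of 15 immediate early genes, among which Zfp36 and Btg2 are often counted, 7 passed. Jund had 94.14 and 369.81 TPM and Egr1 9.30 and 45.53 TPM, both called higher in replicate 2, and Junb had 227.81 and 213.20 TPM and was not called. Klf2 was at 0. Of the 8 immediate early genes tested, 5 were called higher in replicate 2 and none higher in replicate 1, with a median log2 difference of 1.46, beside 18.0% and 29.8% of all genes tested and a median of −0.19. Zfp36 had 0.84 and Btg2 −1.65. Fosb (46 and 20 counts, 0.569 and 1.66 CPM), among the 5 called, passed the filter only through replicate 2. Its call, which also enters the median, follows in part from the filter.

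**Figure D5:**
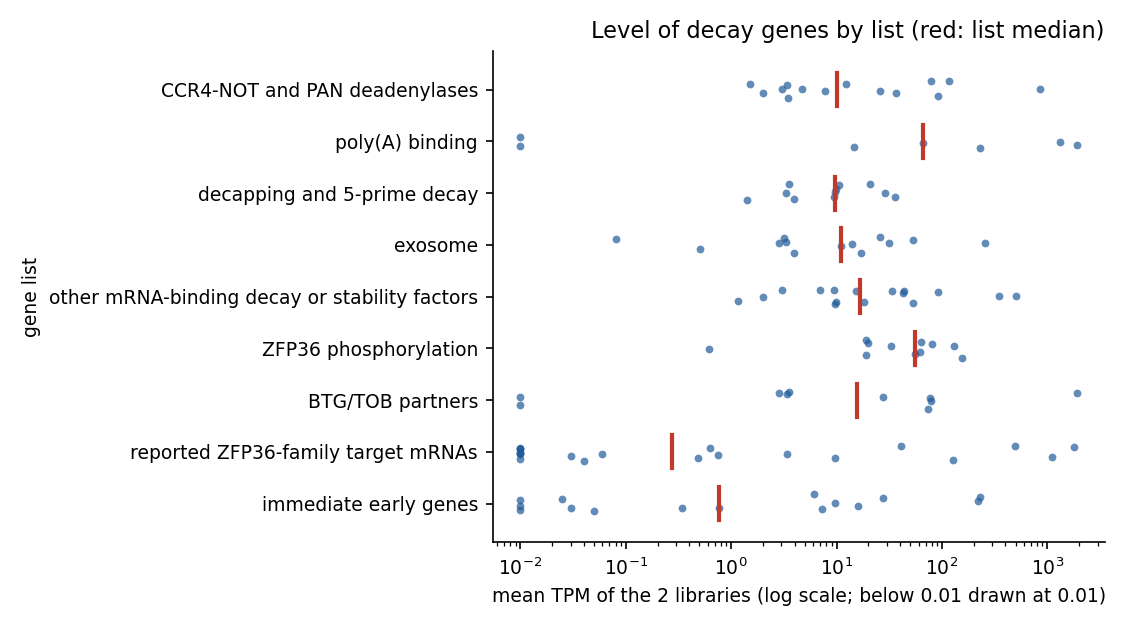
Mean TPM of the 2 libraries (log scale; values below 0.01 drawn at 0.01) for each measured gene of 9 lists of decay machinery and related genes, with the median of the measured genes in red. The medians run from 0.27 TPM for reported targets to 66.2 TPM for poly(A) binding.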

How the data were processed

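Polyadenylated RNA of 2 libraries of 1 group was analysed. In the gene and transcript tables as deposited, the authors give estimated counts, TPM and FPKM values made on mm10 with GENCODE M4, per the labels and the text deposited with the tables. The percent of a gene's TPM that a transcript holds was deposited with the transcript tables. Posterior means were deposited too, and the posterior SDs of counts and the TPM interval bounds were treated as deposited score values, used only to describe. The interval level, aligner, quantification tool and use of strand: not given in the sources used here.

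Symbols and positions came from GENCODE M21 by identifier without version, and 884 genes had no symbol. Levels are TPM per library with mean ± SD. Log2 ratios of TPM used a pseudocount of 0.1. Rounded estimated counts were scaled with edgeR 4.0.16 (TMM factors 1.15 and 0.871). A two-sided exact binomial test with Benjamini-Hochberg adjustment was run on the genes whose mean CPM was 1 or more. The log2 difference used a prior count of 0.5. The step was tested on simulated counts with known changes and counting error only. That check covers the code, not the rate of calls between real libraries. Promoters came from RefSeq (GRCm38.p6), and 3′ UTRs from M21 transcripts. Python 3.11.15, numpy 2.4.6, pandas 2.3.3, scipy 1.17.1, matplotlib 3.10.9, R 4.3.3 and DESeq2 1.42.0 (size factors) were used.

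The 8 genes, the 9 lists and the tests were chosen with earlier results of these data known. Named genes are the 8, Zfp36l3 and Btg4, the 3 highest and the lowest of each list, and the 3 nearest to the leading member of each family by mean. Exosc6 and Prmt1 were not analysed here. Alternatives were posterior means, TMM-scaled CPM, FPKM, TPM of protein coding transcripts or without mitochondrial and globin genes, a pseudocount of 1, other scalings, level filters and folds, and each library alone.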

Additional observations from a re-analysis of the deposited data

How the results depend on the processing

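With both libraries kept, 68 of 82 values of levels, shares and ratios under the alternatives moved by less than the SD over the 2 libraries, and 51 of 66 list counts and medians did so or stayed within 1.5 times. All 10 transcripts are protein coding, so levels and shares from coding transcripts alone equal the main values by construction. They are counted among the 68 of 82 and say nothing about stability. With 2 libraries a single library always lies within 1 SD of the mean, so values of each library alone say nothing about stability. Of single genes, 43 of 48 differences kept their call and direction. With no filter and at a mean CPM of at least 10, only the set of other genes tested changed. The log2 differences of the members under these filters equal the main values by construction, and only the adjustment of p could differ. They are counted among the 43 of 48 and say little about stability. At 1.5-fold the log2 differences are also the main values, and only the limit for a call differed. In TMM-scaled CPM, which is another unit and not corrected for length, the mean levels were 115 for Zfp36, 226 for Zfp36l1, 412 for Zfp36l2, 46.0 for Btg1, 304 for Btg2, 42.4 for Tob1 and 283 for Tob2. On that scale the share of Btg1 was 6.88%, that of Btg3 1.59% and the log2 ratio of Btg2 over Btg3 4.58, and the mean ratios of Zfp36l2 over Zfp36l1 (0.44) and of Btg2 over Tob2 (−0.11) changed sign, while that of Zfp36l2 over Zfp36 was 1.34. Btg1 had 10.3 with posterior mean TPM, 9.50 in FPKM and 12.7 TPM without mitochondrial and globin genes, where Tob2 had 97.6 TPM. Zfp36l1-202 held 75.7% of its gene's counts. At a mean CPM of at least 10, 2495 genes were called, 1346 of them higher in replicate 1. Genes called higher in replicate 2 numbered 948 with total counts, 3078 with no filter and 2438 at 1.5-fold. Members called higher in replicate 1 numbered 2 with total counts and at 1.5-fold (Btg2 and Btg3), and the log2 difference of Btg1 was −0.29 with total counts. The cause of these shifts was not tested. Each library alone gives a different leading paralog, as reported. List medians that moved with 1 library were 9.52 TPM for other mRNA-binding factors and 28.4 TPM for ZFP36 phosphorylation in replicate 2 alone, and 32.0 TPM for BTG/TOB partners and 9.30 TPM for immediate early genes in replicate 1 alone. The depth of replicate 2 limits Btg3, with 99.7 counts. No paired analysis was possible because the labels give 1 group.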
